A study of Rattus norvegicus with 32 samples.

Results

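The transcripts described here are 10 genes of the neuronal response to activity, namely the Fos family members Fos, Fosb and Fosl2, the Jun family members Jun, Junb and Jund, the transcription factor Npas4, and the effectors Arc, Homer1 and Nptx2. They were chosen by name, as the rows of the male and the female count table that carry these symbols. Each symbol was found on 1 row of each table, so that the set holds 10 of the 32883 rows, and all 10 passed the filter on low counts in both sexes. Hippocampal RNA was sequenced from Sprague-Dawley rats at postnatal day 65, and each of the 4 diet groups held 4 males and 4 females: always iron-sufficient (IS, the control), iron-sufficient with prenatal choline (ISch), formerly iron-deficient (FID) and formerly iron-deficient with prenatal choline (FIDch). Iron deficiency came from a low-iron diet of the dam during the fetal and neonatal period, and choline from a supplemented diet of the dam during part of gestation. All rats had been iron-repleted before tissue collection.

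The males formed sequencing batch I and the females batch II. RNA was extracted with another kit in each batch (RNAqueous from Ambion for the males, RNeasy from Qiagen for the females), so that sex, batch and kit cannot be told apart, and levels are therefore compared within a batch only. The paper states a single male per litter for its experiments, but it took its RNA data from an earlier study. Whether the males or the females sequenced here shared litters is thus not settled by the sources used here. Between 3515806 and 9517503 reads were counted on genes per male library (median 8007907) and between 18439999 and 26616318 per female library (median 21747536.5). Counts behind a single value ranged from 24 for Fosb in an ISch male to 4373 for Arc in a FIDch female. Markers of dentate granule cells, CA1 and CA3 pyramidal cells and interneurons were detected in every group. The choroid plexus marker Ttr reached 349 CPM (read counts scaled to a common library total) in FID male 4, against at most 14.5 CPM in any other library.

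Fos and Jun proteins pair through leucine zippers to form the AP-1 transcription factor, which binds DNA at the sequence TGACTCA. In neurons the genes for Fos, Fosb, Junb, Npas4 and Arc are transcribed within minutes of synaptic activity, when calcium entry activates kinases that act on CREB, SRF and MEF2, whereas Jund is transcribed steadily and its protein is present in resting cells. The proteins downstream act at the synapse. Arc carries AMPA receptors away from it by endocytosis, Homer1 links metabotropic glutamate receptors to the postsynaptic scaffold, and Nptx2 is a secreted pentraxin that gathers AMPA receptors. A hippocampus taken from an undisturbed animal holds low levels of the fastest of these transcripts, and those levels follow what the animal did in the last hour of its life. Because the whole hippocampus was sequenced, fewer cells of a type and less RNA per cell cannot be told apart.

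CREB binds the cyclic AMP response element (CRE, TGACGTCA), or its core TGACG. The windows upstream of the start of Jund, Nptx2, Junb and Fosl2 are shown because the fits below called these genes in more than 1 comparison and RefSeq holds their promoters; Npas4 is left out because its window lies away from the end of its gene. RefSeq's table for build GRCr8 held a promoter for 7 of the 10 genes, and the 250 bases before the start were searched on both strands. Capitals mark the core on either strand, which also marks the full CRE, since that element is made of overlapping cores.
Jund, chr16:18769772-18770021, minus strand: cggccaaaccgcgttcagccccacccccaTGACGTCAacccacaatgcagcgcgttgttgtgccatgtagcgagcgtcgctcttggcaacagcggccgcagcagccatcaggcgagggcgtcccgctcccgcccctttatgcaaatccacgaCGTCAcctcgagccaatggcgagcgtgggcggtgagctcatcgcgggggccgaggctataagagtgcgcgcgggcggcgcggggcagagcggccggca
Nptx2, chr12:15162046-15162295, minus strand: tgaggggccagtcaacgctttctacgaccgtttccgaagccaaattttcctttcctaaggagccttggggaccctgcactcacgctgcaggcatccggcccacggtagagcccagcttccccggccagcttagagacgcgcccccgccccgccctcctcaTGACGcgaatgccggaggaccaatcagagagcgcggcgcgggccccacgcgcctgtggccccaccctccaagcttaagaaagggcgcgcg
Junb, chr19:40080876-40081125, plus strand: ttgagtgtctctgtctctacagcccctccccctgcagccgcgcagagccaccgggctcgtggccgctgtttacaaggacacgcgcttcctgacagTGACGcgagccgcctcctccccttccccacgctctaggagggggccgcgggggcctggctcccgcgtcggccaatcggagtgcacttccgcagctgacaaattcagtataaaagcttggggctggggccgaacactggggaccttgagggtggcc
Fosl2, chr6:30039270-30039519, minus strand: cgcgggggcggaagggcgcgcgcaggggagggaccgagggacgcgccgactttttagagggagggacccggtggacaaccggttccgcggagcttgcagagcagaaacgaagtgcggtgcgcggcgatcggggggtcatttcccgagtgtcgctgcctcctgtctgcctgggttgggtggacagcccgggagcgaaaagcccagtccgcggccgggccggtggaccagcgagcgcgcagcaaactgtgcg
The window of Jund held a full CRE 221 to 214 bases before the start and a further core 98 to 94 bases before it. Nptx2 held a core 90 to 86 bases before its start, and Junb held one 155 to 151 bases before its start together with a TATA box (TATAAA) at 49 to 44. The window of Fosl2 held none of the motifs searched. Fosb and Homer1 held no core, but each held a TATA box, at 180 to 175 and 223 to 218 bases before the start. A full CRE was present in 1.59% of 33469 promoter windows of this length, a core in 18.2%, and a TATA box in 12.9%. The AP-1 site TGACTCA, present in 4.05% of windows, and the CArG box bound by SRF, present in 1.5%, were found in none of the 7 windows. The window of Npas4 is among the 7, but given where it lies it does not describe the promoter of Npas4. A match describes these letters only.

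**Figure D1:**
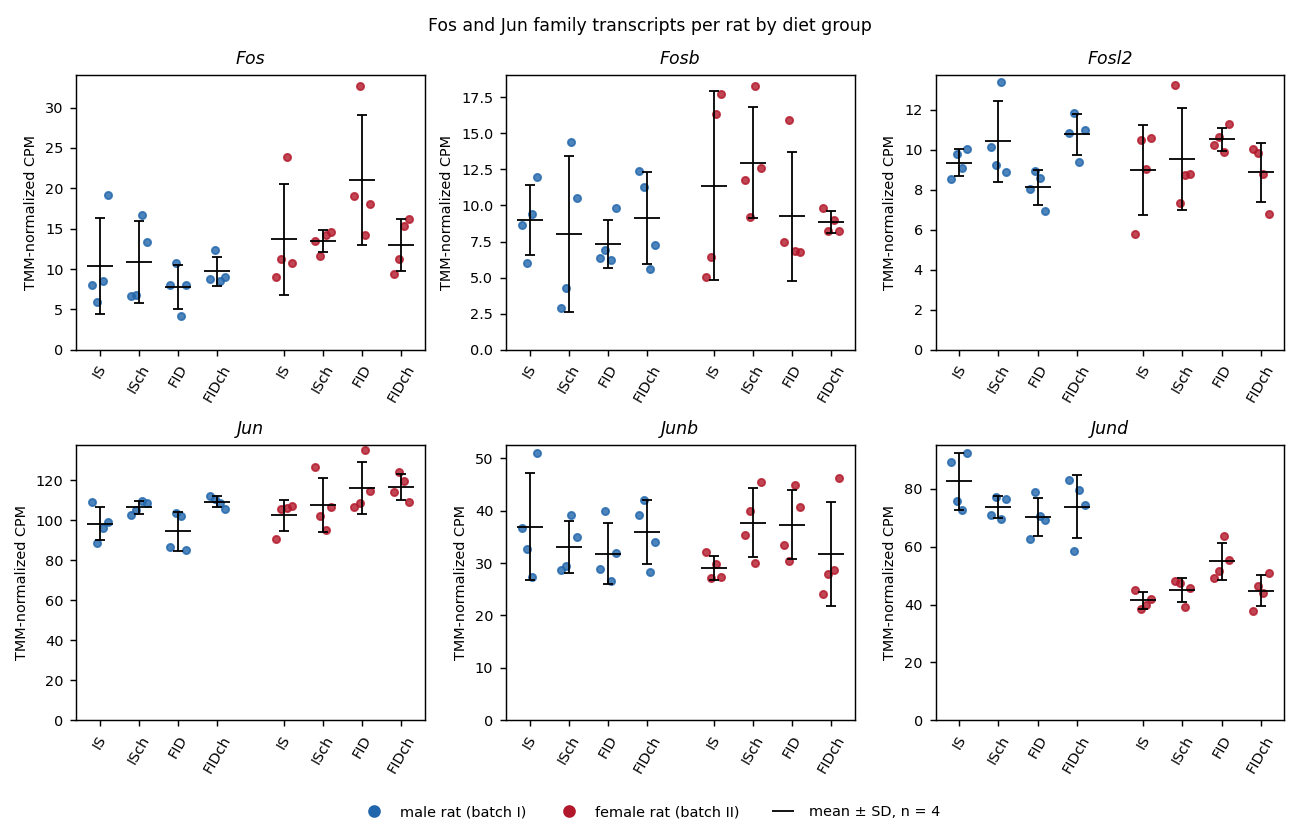
TMM-normalized CPM (y axis) of the 6 Fos and Jun family genes in each rat, by diet group (x axis), males in blue and females in red, with the mean and SD of 4 rats in black. Jund in FID females sat between 49.0 and 63.5 CPM, above all 4 IS females at 38.6 to 45.1, while Fos and Fosb spread widely within groups.

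Levels are given as CPM, normalized by the trimmed mean of M values (TMM) over the 16 libraries of a batch, as mean ± SD with n = 4 rats. Fos, which codes for the prototype partner of Jun, averaged 10.4 ± 5.96 CPM in IS males and 10.9 ± 5.02 in ISch males, and 7.77 ± 2.70 in FID males and 9.70 ± 1.82 in FIDch males. The 4 IS males had 8.06, 5.90, 8.47 and 19.2 CPM, so that 1 rat alone lay over the range of the other 3. In females Fos averaged 13.7 ± 6.87 CPM in IS and 13.5 ± 1.31 in ISch, with 21.0 ± 8.06 in FID and 13.0 ± 3.22 in FIDch rats. The groups of each sex overlapped in every pair. Fosb, whose stable splice product accumulates with repeated stimulation, ranged from 2.90 to 14.4 CPM among the 4 ISch males and from 5.05 to 17.7 CPM among the 4 IS females, a spread that nearly spanned all groups of those sexes. Fosl2, which codes for Fra-2, was steadier, with group means of 8.12 to 10.8 CPM in males and 8.87 to 10.5 CPM in females.

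Jun varied little. Its group means were 94.4 to 109 CPM in males and 102 to 117 CPM in females. Junb had means of 31.8 to 36.9 CPM in males and 29.1 to 37.7 CPM in females. Jund averaged 82.5 ± 9.79 CPM in IS males and 73.6 ± 3.82 in ISch males, then 70.4 ± 6.62 in FID and 73.8 ± 10.9 in FIDch males, and in females 41.4 ± 2.85, 45.0 ± 4.13, 54.9 ± 6.33 and 44.8 ± 5.48 in the same order. The female order thus ran from IS through FIDch and ISch to FID, in which FID lay clear of IS and ISch and overlapped FIDch by 1 rat, and the 3 lower groups overlapped one another.

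Among the effectors, Arc averaged 92.0 to 96.6 CPM in the 4 male groups, with 1 IS male at 155 CPM. In females it averaged 134 ± 22.1 CPM in IS and 178 ± 34.3 in ISch, against 124 ± 18.9 in FID and 131 ± 47.3 in FIDch. Homer1, counted over all its isoforms and so not resolved into the short induced form Homer1a, had means of 55.7 to 64.0 CPM in males and 56.9 to 65.1 CPM in females. Npas4, a transcription factor induced by calcium in neurons, had male means of 6.83 to 10.1 CPM and female means of 5.92 ± 1.79 in IS, 7.55 ± 1.71 in ISch, 8.91 ± 1.88 in FIDch and 11.8 ± 4.10 in FID. Nptx2 averaged 98.8 ± 3.09 CPM in IS males, 91.6 ± 7.11 in FIDch, 87.9 ± 6.86 in FID and 74.3 ± 11.7 in ISch, and 78.2 ± 4.22, 67.7 ± 8.61, 76.0 ± 10.6 and 68.2 ± 9.07 in the females of the same groups. In both sexes IS was the highest of the 4 group means of Nptx2.

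**Figure D2:**
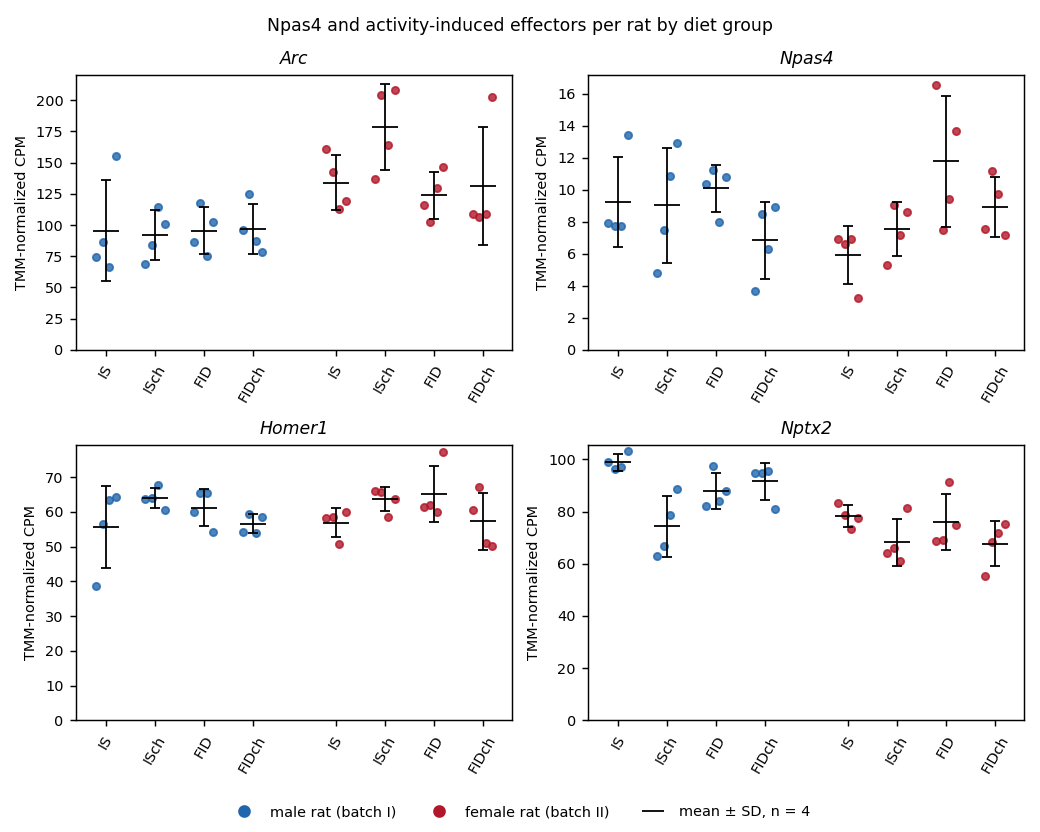
TMM-normalized CPM (y axis) of Arc, Npas4, Homer1 and Nptx2 in each rat, by diet group (x axis), males in blue and females in red, with the mean and SD of 4 rats in black. Nptx2 in ISch males lay between 63.1 and 88.7 CPM, below all 4 IS males at 96.2 to 103 CPM, and Npas4 in FID females lay between 7.47 and 16.5 CPM, above all 4 IS females.

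The comparison of FID with IS asked what early iron deficiency left behind in the adult hippocampus. In females, Jund, Npas4 and Junb were higher in FID than in IS, and no gene of the set was lower, by the criterion of the study, which asks for a log2 fold change beyond 0.2 in either direction together with p under 0.05 before adjustment. These were 3 of the 10 genes, against 6.47% of the 14632 genes tested in either direction and 3.08% higher in FID. Jund had 45.1, 38.6, 39.9 and 42.0 CPM in the 4 IS females and 49.0, 51.6, 63.5 and 55.5 CPM in the 4 FID females. All 4 FID values lay over all 4 IS values. This gave a log2 fold change of 0.41 for Jund (SE 0.077, edgeR quasi-likelihood test p = 0.000169, Benjamini-Hochberg adjusted p = 0.0589, exact permutation p = 0.029, the smallest that 4 against 4 can give). It was called in all 14 alternative fits, with log2 fold changes of 0.33 to 0.46.

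Npas4 had 6.92, 6.60, 6.91 and 3.23 CPM in the IS females and 16.5, 7.47, 9.42 and 13.7 CPM in the FID females. The groups did not overlap, although FID female 2 lay close to the IS range. Its log2 fold change of 1.01 (SE 0.26) was the largest of the set in any pairwise comparison (edgeR quasi-likelihood p = 0.00192, Benjamini-Hochberg adjusted p = 0.155, exact permutation p = 0.029), and it was called in all 14 alternatives, at 0.80 to 1.17. Jund and Npas4 were the 2 genes of the set whose groups did not overlap, against 6.50% of all genes tested. Junb, the Jun protein that is itself induced, had 32.1, 27.1, 29.9 and 27.4 CPM in IS and 33.4, 30.4, 44.9 and 40.6 CPM in FID females. These groups overlapped, since FID female 2 lay under IS female 1. Junb had a log2 fold change of 0.36 (SE 0.11, edgeR quasi-likelihood p = 0.00518, Benjamini-Hochberg adjusted p = 0.220, exact permutation p = 0.057), and it missed the criterion when the 4 diet groups were fitted together.

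Fos in females was 0.61 higher on the log2 scale in FID (SE 0.30) without reaching the criterion (edgeR quasi-likelihood adjusted p = 0.471, exact permutation p = 0.26). Jun and Homer1 had an unadjusted p under 0.05 with log2 fold changes of 0.18 and 0.20, short of the limit on size. The median log2 fold change of the 10 genes was 0.21, and that of all genes 0.00030.

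In males, 1 of the 10 genes met the criterion in FID against IS, where 4.62% of the 13851 genes tested did (2.28% lower), and it was lower. Jund had 89.4, 75.7, 72.7 and 92.4 CPM in IS males and 62.8, 78.9, 70.7 and 69.0 CPM in FID males, with overlapping groups. Its log2 fold change was -0.23 (SE 0.096, edgeR quasi-likelihood p = 0.0307, Benjamini-Hochberg adjusted p = 0.786, exact permutation p = 0.11). The call was lost on leaving out any 1 of IS male 1, IS male 4, FID male 1, FID male 3 or FID male 4, with log2 fold changes of -0.24 to -0.18. Nptx2 had an unadjusted p of 0.0285 (edgeR quasi-likelihood, adjusted p = 0.786) at a log2 fold change of -0.17, short of the size limit. The groups overlapped for all 10 genes, whereas 3.53% of all genes did not overlap, and the median over the 10 was -0.19, against -0.0097 for all genes. FID male 4 is the library with choroid plexus RNA, and its summed choroid plexus markers reached 388.7 CPM over 5 genes, against 3.98 to 6.05 CPM in IS males. The part of that RNA in the value of Jund was not tested, and without this library the log2 fold change of Jund was -0.22.

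The diet effects of the male and the female batch were set against each other directly in 1 model of the 16 libraries concerned. They differed at the criterion for Jund, Junb and Npas4 in FID against IS, 3 of the 10 genes against 7.64% of all genes. The same test called 1 of 10 in FIDch against IS (12.9% of all genes), 2 in ISch against IS (14.2%) and 3 in FIDch against FID (17.7%). For Jund in FID against IS the male minus female difference was -0.62 (SE 0.13, edgeR quasi-likelihood adjusted p = 0.1998), the lowest unadjusted p of the 40 such tests.

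The comparison of ISch with IS asked what prenatal choline left behind in rats that had never been iron-deficient. In males, Nptx2 was lower in ISch, and it was the 1 gene of the 10 at the criterion, against 8.06% of the 13956 genes tested (3.54% lower). The IS males had 98.9, 96.2, 97.1 and 103 CPM of Nptx2, and the ISch males had 63.1, 66.8, 78.6 and 88.7 CPM. The IS values were close together, and every ISch value lay under all of them. The log2 fold change was -0.41 (SE 0.095, edgeR quasi-likelihood p = 0.000894, Benjamini-Hochberg adjusted p = 0.156, exact permutation p = 0.029), and it was the 1 gene of the set without overlap, against 6.15% of all genes. All 15 alternatives called it, at -0.51 to -0.24. The smallest value came without ISch males 1 and 2, the libraries named in another form in the table, which were also the lowest in Nptx2, and that fit left 2 ISch rats. In the same comparison 2 of the 4 dentate granule cell markers tested were lower in ISch males, although their summed level overlapped (218 to 239 CPM in ISch, 200 to 252 CPM in IS). Their part in the value of Nptx2 was not tested.

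In females, Junb and Arc were higher in ISch than in IS, 2 of the 10 genes against 10.3% of the 14466 tested (5.14% higher). Junb had 32.1, 27.1, 29.9 and 27.4 CPM in IS females and 35.4, 40.0, 30.1 and 45.4 CPM in ISch females. ISch female 3 lay inside the IS range and the other 3 above it. The log2 fold change was 0.37 (SE 0.11, edgeR quasi-likelihood p = 0.00618, Benjamini-Hochberg adjusted p = 0.120, exact permutation p = 0.057). Arc had 161, 143, 113 and 119 CPM in IS and 136, 204, 164 and 208 CPM in ISch females, and again 1 ISch female lay inside the IS range. Its log2 fold change was 0.41 (SE 0.14, edgeR quasi-likelihood p = 0.0134, Benjamini-Hochberg adjusted p = 0.174, exact permutation p = 0.11). All 14 alternatives called Junb and Arc, at 0.27 to 0.47 and 0.33 to 0.52. Homer1 and Nptx2 had an unadjusted p under 0.05 and log2 fold changes of 0.16 and -0.20, both short of the size limit. No gene of the set was free of overlap between these groups, which 10.1% of all genes were.

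Dentate granule cell markers moved in the same female comparison. All 4 tested were higher in ISch, and the 5 genes summed to 284 to 328 CPM in ISch against 201 to 230 CPM in IS. Their part in the values of Junb and Arc was not tested. In FID females the dentate sum was 208 to 233 CPM, and 0 of the 4 dentate markers tested met the criterion against IS. Markers of other cells moved in ISch females as well. Lower were 2 of 4 for microglia and 1 of 4 for CA3 and CA2. Higher were 2 of 4 for blood, 1 of 3 for CA1 and 1 of 4 for astrocytes. In FID females 1 of 3 for CA1 and 1 of 5 for striatum were higher, and 1 of 4 for choroid plexus was lower. The part of these markers was not tested either.

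FIDch was compared with IS, and with FID to see what choline did in formerly iron-deficient rats. In FIDch males none of the 10 genes met the criterion against IS, where 6.12% of the 13693 genes tested did by the edgeR quasi-likelihood test. None of the 10 had an unadjusted p under 0.05, while among the alternatives Jun, Arc and Npas4 were called in 1, 1 and 3 of 15. Nptx2 did not overlap between these groups, which held for 5.32% of all genes, at a log2 fold change of -0.11 (SE 0.071, edgeR quasi-likelihood adjusted p = 0.736, exact permutation p = 0.029). In FIDch females 2 genes met it against IS, where 8.98% of 14662 did. Npas4 had 7.57, 11.2, 9.75 and 7.17 CPM in FIDch females, all over the 4 IS females. Its log2 fold change was 0.60 (SE 0.23, edgeR quasi-likelihood p = 0.0261, adjusted p = 0.302, exact permutation p = 0.029), and the call was lost without FIDch female 2 (0.47) or FIDch female 3 (0.55). Nptx2 was lower, with 55.4, 68.4, 71.8 and 75.1 CPM in FIDch against 83.4, 78.8, 73.2 and 77.5 CPM in IS females, where the groups overlapped.

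For Nptx2 in FIDch females this gave a log2 fold change of -0.21 (SE 0.086, edgeR quasi-likelihood p = 0.0345, adjusted p = 0.334, exact permutation p = 0.057), and it was called in 7 of 14 alternatives. Leaving out any 1 of IS females 1, 2 and 4 or FIDch females 1 and 2 ended the call, and without FIDch female 1 the log2 fold change was -0.12. Jun had no overlap, as for 7.80% of all genes, at a log2 fold change of 0.19 that missed the size limit (edgeR quasi-likelihood p = 0.0144, adjusted p = 0.249, exact permutation p = 0.029). The comparisons of FID, FIDch and ISch with IS share the same 4 IS rats of a sex, so their values are not independent of one another. All 4 dentate granule cell markers tested were higher in FIDch than in IS females (median log2 fold change 0.39), and the 5 genes summed to 255 to 309 CPM in FIDch. Their part in the values of Npas4 and Nptx2 was not tested.

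Between FIDch and FID males, Fosl2 was higher and Npas4 lower in FIDch, 2 of the 10 genes against 13.0% of 13945. Fosl2 had 8.02, 8.91, 8.57 and 6.95 CPM in FID males and 10.8, 11.9, 9.38 and 11.01 CPM in FIDch males, without overlap. Its log2 fold change was 0.38 (SE 0.13, edgeR quasi-likelihood p = 0.0119, Benjamini-Hochberg adjusted p = 0.160, exact permutation p = 0.029). Npas4 had 10.4, 11.2, 7.99 and 10.8 CPM in FID and 3.66, 8.47, 6.29 and 8.92 CPM in FIDch males, and FID male 3 lay inside the FIDch range. The log2 fold change of Npas4 was -0.63 (SE 0.22, edgeR quasi-likelihood p = 0.0147, Benjamini-Hochberg adjusted p = 0.175, exact permutation p = 0.086). It was called in all 15 alternatives, at -0.80 to -0.39, and the smallest change came without FIDch male 1, the lowest library. Fosl2 was also called in all 15, at 0.31 to 0.45, and without FID male 4, the library with choroid plexus RNA, it stood at 0.31. Jun did not overlap between these groups either, so that 2 of the 10 genes did not overlap, against 10.8% of all genes, and its log2 fold change of 0.20 lay just under the size limit (0.1988, edgeR quasi-likelihood p = 0.0167, adjusted p = 0.186, exact permutation p = 0.029).

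Between FIDch and FID females, Fos and Jund were lower in FIDch, 2 of the 10 genes against 12.7% of 14680 (7.07% lower), and none of the 10 was free of overlap, against 11.9% of all genes. Fos had 19.1, 32.7, 14.2 and 18.005 CPM in FID females and 9.42, 11.3, 15.3 and 16.2 CPM in FIDch females. FID female 3 lay inside the FIDch range, and FID female 2 far over all others. The log2 fold change was -0.69 (SE 0.25, edgeR quasi-likelihood p = 0.0166, Benjamini-Hochberg adjusted p = 0.168, exact permutation p = 0.086), and without FID female 2 it was -0.40 and no longer called. Jund had 37.9, 46.6, 43.9 and 51.0 CPM in FIDch females, of which 1 exceeded the lowest FID value of 49.0. Its log2 fold change was -0.29 (SE 0.098, edgeR quasi-likelihood p = 0.0121, Benjamini-Hochberg adjusted p = 0.147, exact permutation p = 0.057), called in all 14 alternatives at -0.36 to -0.22. Of the 4 dentate granule cell markers tested, 3 were higher in FIDch than in FID females. The CA1 markers summed to 493 to 1077 CPM in FIDch and 813 to 857 CPM in FID females, and 0 of the 4 tested met the criterion. The part of either set in these values was not tested.

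**Figure D3:**
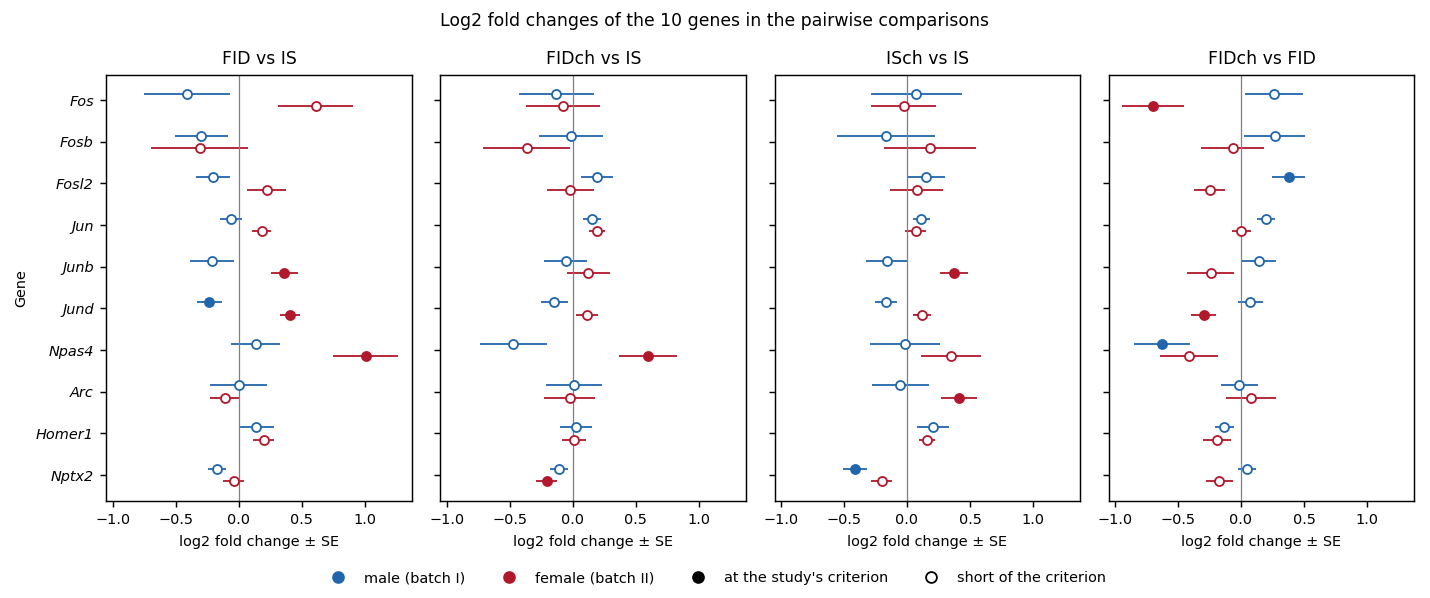
Log2 fold change and standard error (x axis) of each of the 10 genes (y axis) in the 4 pairwise comparisons, males in blue and females in red, filled where the study's criterion was met. Jund in FID against IS lay at -0.23 in males and 0.41 in females, and Nptx2 in ISch against IS lay at -0.41 in males and -0.20 in females.

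No gene of the set had a Benjamini-Hochberg adjusted p under 0.05 in any of these 8 pairwise comparisons, and the lowest was that of Jund in FID females. Of all genes tested, 0% in FID, 0.131% in FIDch and 0.208% in ISch males passed that threshold against IS and 1.28% in FIDch against FID, and in females 0.191%, 0.907%, 2.54% and 2.28% in the same order. Nor did any gene of the set pass it in the joint and interaction tests below, which 0.748% and 0.00699% of all genes did in males and 5.34% and 0.00668% in females. A joint test over the 4 diet groups of a sex asked for any difference among them. In females Jund (edgeR quasi-likelihood adjusted p = 0.0510) and Npas4 (adjusted p = 0.0918) had an unadjusted p under 0.05, 2 of the 10 genes against 22.5% of all genes tested. In males 3 of the 10 did, against 14.3%, namely Nptx2 (edgeR quasi-likelihood adjusted p = 0.116), Jun (adjusted p = 0.303) and Fosl2 (adjusted p = 0.335). Without the 3 male libraries named in another form (ISch males 1 and 2, FIDch male 2) none of these 3 had an unadjusted p under 0.05. Jun kept its call in 15 of 22 alternatives, and it was lost without ISch males 3 or 4, FID males 1 or 4 or FIDch males 1 or 2. Fosl2 kept its call in 11 of 22, and it was lost without IS male 3, ISch male 1, FID males 1, 3 or 4 or FIDch males 1, 2 or 4.

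The design crosses iron with choline, so that the difference of the choline effect between formerly iron-deficient and iron-sufficient rats was tested as an interaction. In males it was called for Nptx2, 1 of 10 against 14.4% of all genes (6.84% with a higher value). Choline went with lower Nptx2 in iron-sufficient males and not in formerly iron-deficient ones (98.8 to 74.3 CPM and 87.9 to 91.6 CPM), and the interaction was 0.47 on the log2 scale (SE 0.13, edgeR quasi-likelihood adjusted p = 0.152). All 22 alternatives called it, at 0.27 to 0.56. In females it was called for Junb, Jund and Homer1, 3 of 10 against 7.33% of all genes (4.16% with a lower value), each with a lower value. Junb averaged 29.1 CPM in IS and 31.7 in FIDch females, and 37.7 in ISch and 37.3 in FID females, a pattern in which either exposure alone went with a higher mean than both together. The interaction of Junb was -0.61 (SE 0.24, edgeR quasi-likelihood adjusted p = 0.476), that of Jund was -0.41 (SE 0.13, adjusted p = 0.387) and that of Homer1 was -0.35 (SE 0.13, adjusted p = 0.468). Jund was called in all 21 alternatives, Homer1 in 20 (lost without FID female 4) and Junb in 18 (lost without ISch female 4, FID female 3 or FIDch female 1).

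Other genes of the activity response are described from a list of 38, such as the Egr and Nr4a transcription factors, Dusp phosphatases and Bdnf, of which 37 were tested. In females 21 of the 37 met the criterion in ISch against IS, 20 of them higher, which is 56.8% against 10.3% of all genes, with a median log2 fold change of 0.26 against -0.0037. The smallest p-values were those of Egr2 (1.33, SE 0.12, edgeR quasi-likelihood adjusted p = 0.000324), the neurotrophin Bdnf (0.65, SE 0.073, adjusted p = 0.00150) and Egr1 (0.46, SE 0.070, adjusted p = 0.0114). In FID females 16 of 37 met it (43.2% against 6.47% of all genes), 9 higher and 7 lower, led by the phosphatase gene Dusp5 at -0.53 (SE 0.13, edgeR quasi-likelihood adjusted p = 0.128). Against IS, 4 of the 4 dentate markers tested were higher in ISch females and 0 met the criterion in FID females. The part of these markers in the ISch count was not tested. FIDch females had 12 of 37 at the criterion against IS (32.4% against 8.98% of all genes), 9 higher and 3 lower. Against FID they had 11 of 37 (29.7% against 12.7%), 6 higher and 5 lower. Beside these counts and the values of Bdnf, Ptgs2, Ccn1 and Nfil3 below, 4 of 4 dentate markers tested were higher in FIDch than in IS and 3 of 4 than in FID (median log2 fold changes 0.39 and 0.39), and their part was not tested.

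In the FIDch females Bdnf was higher than in IS by 0.48 (SE 0.073, edgeR quasi-likelihood adjusted p = 0.0177), and Ptgs2, the inducible cyclooxygenase, by 0.30 (SE 0.057, adjusted p = 0.0385). Neither was particular to FIDch. In FID females Bdnf was 0.26 and Ptgs2 0.23 higher than in IS (edgeR quasi-likelihood adjusted p = 0.206 for both), and in ISch females Ptgs2 was 0.26 higher (adjusted p = 0.1325). These comparisons share the IS females. Ccn1, a secreted matrix protein, was lower in FIDch than in IS by -2.09 and than in FID by -2.60 (edgeR quasi-likelihood adjusted p = 0.0412 and 0.0107). In ISch females Ccn1 was lower than in IS too, by -2.51 (edgeR quasi-likelihood adjusted p = 0.0337). The repressor Nfil3 was 0.59 higher in FIDch than in FID females (edgeR quasi-likelihood adjusted p = 0.0240). The female interaction was lower for 9 of 37 and higher for none (24.3% against 7.33% of all genes, 4.16% lower), with Egr1 at -0.75 (SE 0.15, edgeR quasi-likelihood adjusted p = 0.141). In males 0 of 37 genes met the criterion in FID against IS, where 4.62% of all genes did. Against IS, 2 did in FIDch (5.41% against 6.12% of all genes) and 3 in ISch (8.11% against 8.06%). In FIDch against FID 3 did (8.11% against 13.0%). The male values with the smallest p included the clock gene Per1 in FIDch, 0.39 higher than in IS (SE 0.10, edgeR quasi-likelihood adjusted p = 0.310) and 0.44 higher than in FID (SE 0.085, adjusted p = 0.0347). Ptgs2 was lower in FIDch than in FID males by -0.27 (edgeR quasi-likelihood adjusted p = 0.182), and Ier5 in FIDch against IS stood at -0.25 (adjusted p = 0.463). In ISch against IS males they were Nrn1 at -0.23 (edgeR quasi-likelihood adjusted p = 0.245) and Fosl1, the remaining Fos family member, at -0.53 (adjusted p = 0.415). Fosl1 held 22 to 77 counts per male library, but only 0 to 8 in the deeper female libraries.

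The partners of AP-1 (bZIP proteins such as the ATF and MAF factors, 9 tested in males and 10 in females) had 0 to 2 genes at the criterion in each pairwise comparison. That is 0% to 22.2% of those tested, where 4.62% to 13.0% of all genes met it. In FID males Jdp2, a repressor that dimerizes with Jun, was lower by -0.31 and Atf2 higher by 0.27 (edgeR quasi-likelihood adjusted p = 0.786 for both). Of 22 upstream kinases and factors tested, 6 met the criterion in ISch females (5 higher, 1 lower), which is 27.3% against 10.3% of all genes. In the other pairwise comparisons 0 to 3 did, or 0% to 13.6%, against 4.62% to 13.0% of all genes. Of the 6, 4 had an adjusted p under 0.05 by the edgeR quasi-likelihood test: Elk1, an SRF partner, at 0.66 (adjusted p = 0.0161), Crem at 0.44 (0.0323), Mef2d at 0.22 (0.0375) and Crebbp, the coactivator of CREB, at -0.30 (0.0275). Crebbp was lower than in IS in all 3 other female groups, with -0.25 in FID (SE 0.052, edgeR quasi-likelihood adjusted p = 0.0740) and -0.38 in FIDch (adjusted p = 0.129), comparisons that share the IS rats, and it was 0.31 higher in ISch males (adjusted p = 0.385). All 4 dentate granule cell markers tested were higher than in IS in ISch and in FIDch females. Their part in the ISch and FIDch female values of these genes was not tested. Mef2a and Mef2c were lower in FIDch than in FID males by -0.22 and -0.20 (edgeR quasi-likelihood adjusted p = 0.0775 and 0.105), and their male interactions, with that of the kinase gene Mapk10, were -0.39, -0.29 and -0.32 (adjusted p = 0.204, 0.197 and 0.188). Mef2d had a female interaction of -0.33 (SE 0.067, edgeR quasi-likelihood adjusted p = 0.141).

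Among 16 synaptic partners of Homer1, Arc and Nptx2, Shank1, the scaffold that Homer1 binds, was 0.30 higher in FID than in IS females (SE 0.062, edgeR quasi-likelihood adjusted p = 0.0726). It was lower in FIDch than in FID females by -0.39 (SE 0.080, adjusted p = 0.0314, edgeR quasi-likelihood test), and its female interaction was -0.45 (SE 0.10, adjusted p = 0.178). Homer3 was lower than in IS by -0.31 in FID, -0.21 in FIDch and -0.22 in ISch males (edgeR quasi-likelihood adjusted p = 0.786, 0.513 and 0.423). These comparisons share the IS males. In ISch females 2 partners had an adjusted p under 0.05 by the edgeR quasi-likelihood test, both lower than in IS: Nptxr, the receptor that pairs with Nptx2, at -0.30 (SE 0.053, adjusted p = 0.0184), and Sh3gl3, an endophilin, at -0.28 (SE 0.049, adjusted p = 0.0178). All 4 dentate granule cell markers tested were higher in ISch than in IS females, and 3 of 4 in FIDch than in FID females. Their part in the female values of Nptxr, Sh3gl3 and Shank1 was not tested. The synaptic partners at the criterion numbered 1 to 4 of 16 in each of the 8 pairwise comparisons. That is 6.25% to 25.0%, where 4.62% to 13.0% of all genes met it. ISch males had the highest share (25.0% against 8.06% of all genes). FID females against IS (6.25% against 6.47%) and FIDch against FID males (6.25% against 13.0%) lay under the share of all genes.

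From rat to rat, 3 of the other 9 genes followed Fos in males. Over the 16 males Pearson's r of log2 CPM with Fos was 0.793 for Junb, 0.777 for Arc and 0.677 for Fosb, with permutation p-values adjusted over the 18 pairs of both sexes of 0.00306, 0.00378 and 0.0236. Spearman's rho was 0.741, 0.697 and 0.756 (adjusted permutation p = 0.0125, 0.0205 and 0.0125). These values of r fell to 0.634, 0.675 and 0.712 over 14 males without IS male 4 and FID male 3, the highest and the lowest in Fos, and their adjusted permutation p-values were then 0.0870, 0.0694 and 0.0694. Within diet groups, as deviations from the group means, r was 0.812, 0.841 and 0.730 (adjusted permutation p = 0.0135, 0.0135 and 0.0305). Npas4 reached r = 0.512 over all males (adjusted permutation p = 0.191) and 0.733 within groups (0.0163).

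In females r with Fos ranged from -0.242 for Arc to 0.375 for Fosb, and none had an adjusted permutation p under 0.05. These values depended on FID female 2 and IS female 3, the rats farthest from the median of Fos. Over the 14 other females r was 0.547 for Junb and 0.563 for Npas4 (unadjusted permutation p = 0.0439 and 0.0347, adjusted 0.158 and 0.156), 0.123 for Arc and 0.012 for Fosb (adjusted permutation p = 0.805 and 0.968), and none had an adjusted p under 0.05. As deviations from the group means of all 16 females, r was instead -0.005 for Junb and -0.07 for Npas4 (adjusted permutation p = 0.983 and 0.947). In that setting it was -0.178 for Arc and 0.619 for Fosb (0.843 and 0.156), and again none had an adjusted p under 0.05. The difference between the sexes in these correlations was not tested. All values of 1 library share its scaling, and the 16 rats include the diet groups. Over the 45 pairs among the 10 genes, r had a median of 0.271 in males and 0.102 in females. Junb with Arc was among the closest pairs in both sexes, at r = 0.837 and 0.693, and Junb with Jund was closest in females, at 0.728.

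Among the 13851 genes ranked by the lower of their r in the 2 sexes (16 rats each), the 5 most like Fos were Nkd1 (r = 0.628 in males and 0.678 in females), Ier2 (0.696 and 0.621), Rsph1 (0.586 and 0.736), Cep41 (0.578 and 0.652) and Dusp1 (0.752 and 0.553). The 5 most like Arc were Nr4a1 (0.870 in both), Egr1 (0.858 and 0.746), Egr2 (0.776 and 0.705), Aagab (0.776 and 0.691) and Egr4 (0.770 and 0.655). The genes ranked nearest to Arc thus included 4 inducible transcription factors, while those nearest to Fos included Ier2 and Dusp1 of the activity-induced list.

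**Figure D4:**
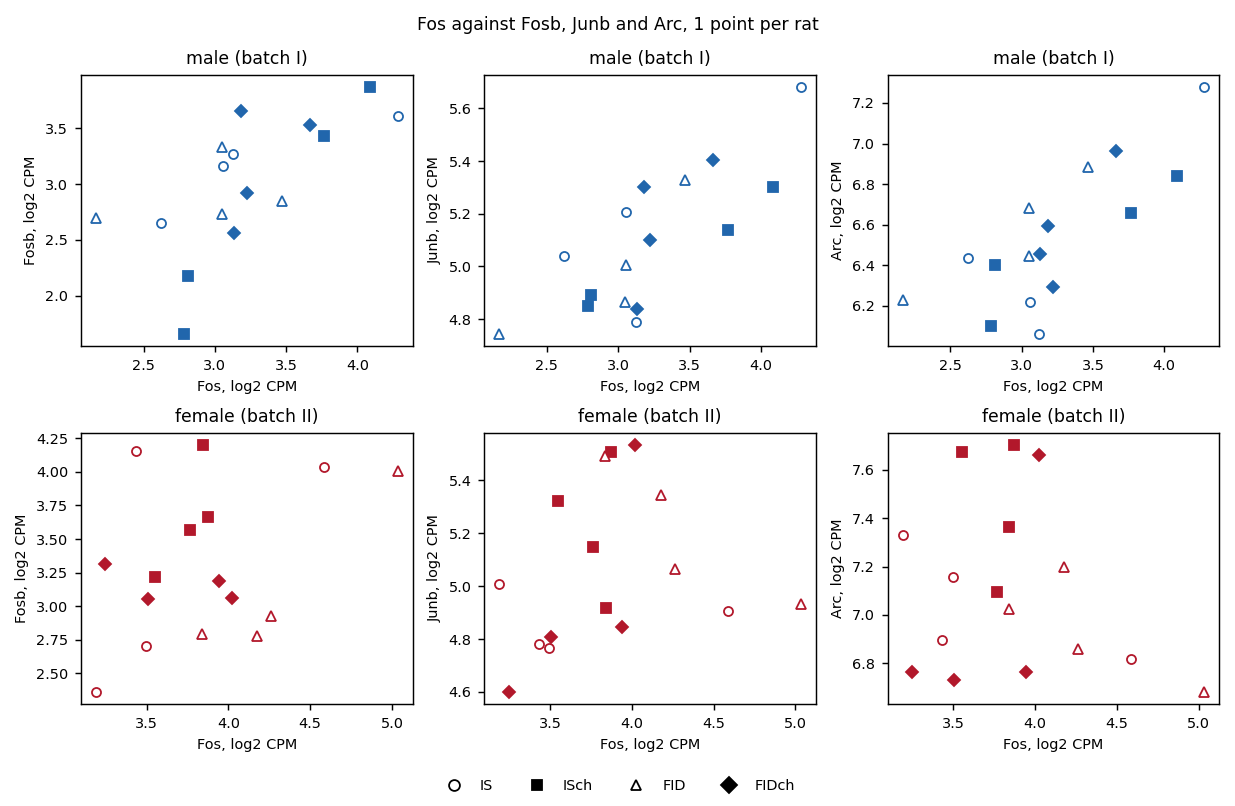
Log2 CPM of Fosb, Junb and Arc (y axes) against that of Fos (x axes), 1 point per rat, males in the upper row and females in the lower, with the diet group as symbol. In males the points rise together (r = 0.677, 0.793 and 0.777 over 16 rats), and in females r was 0.375, 0.197 and -0.242. Without the 2 rats of each sex farthest from the median of Fos, r was 0.712, 0.634 and 0.675 in males and 0.012, 0.547 and 0.123 in females.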

How the data were processed

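The deposited values are whole-number counts of reads per gene, which the authors made by aligning each library and left unnormalized. The submitters' processing notes name FastQC, Trimmomatic, HISAT2, featureCounts, Subread and the build Rnor_6.0, and strand and multi-mapping settings are not given in the sources used here. Of the 32883 rows, 2637 repeat a symbol of an earlier row; none is a gene of the set.

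All fits used edgeR 4.0.16 under R 4.3.3 (TMM, filterByExpr, glmQLFit and glmQLFTest). Each pair of groups was fitted alone on the whole table, as in the study, and the joint and interaction tests used the 16 libraries of a sex. Calls followed the study's criterion, and Benjamini-Hochberg adjusted p-values ran over all genes tested. Single genes were also compared by 2-sided exact permutation tests on CPM. Correlations used log2 CPM with a prior count of 2 and 100000 resamples in scipy 1.17.1. The fits were tested on simulated data. Between any 2 rats of a group (48 pairs) a chi-square over genes came to 2.02 to 25.2 per gene, so none agreed within counting noise. Beyond the single male per litter that the paper states for its own experiments, no source used here says how the rats of a group were housed or related. The p-values thus measure the spread between these samples.

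Totals per library set the precision; 1 count of 0 allows up to 3 counts at 95% confidence, which covers counting error only. Alternatives were RLE size factors, no filter, the likelihood ratio test, DESeq2 1.42.0, the 4 groups in 1 fit, a replicate block, and each library left out. The 10 genes, the gene lists and the tests were chosen with earlier results of these data known. Genes outside the set are named where they ranked among the 5 most like Fos or Arc, or, over all lists together, among the 3 with the smallest p at the criterion in a comparison. Ttr was added after its values were seen, as were Elk1, Crem, Nptxr and Sh3gl3, the ISch female value of Mef2d, those of Crebbp in ISch and FIDch females, and the test between the sexes. The ISch male value of Homer3 and the male value of Ptgs2 were also added then. So were the ISch female values of Ccn1 and Ptgs2 and the FID female values of Bdnf and Ptgs2. The chromatin accessibility and histone data of the study were not used here.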

Additional observations from a re-analysis of the deposited data

Results flagged for a closer look

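In 9 of 80 groups of 4 rats, 1 rat stood apart from the other 3 by Dixon's test at the 95% level, which chance gives in about 1 in 20 groups. The rats that were far above their group were FIDch female 4 for Arc (202 CPM, the next rat at 109), IS female 3 for Fos (23.9 CPM, next 11.2), FIDch male 2 for Fos (12.4 CPM, next 9.07), FID female 2 for Fosb (15.9 CPM, next 7.50), FID female 4 for Homer1 (77.3 CPM, next 61.9) and IS male 4 for Npas4 (13.4 CPM, next 7.94). The rats far below were IS female 1 for Jun (90.5 CPM, next 106), IS female 4 for Npas4 (3.23 CPM, next 6.60) and FIDch male 4 for Nptx2 (80.9 CPM, next 94.8). FIDch male 2 was the shallowest library of the series (3515806 reads), and its Fos value rests on 44 counts.

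The diet effects differed between males and females in 9 of 40 tests at the study's criterion, in 1 edgeR quasi-likelihood model of the 16 libraries concerned. Since sex, batch and extraction kit cannot be told apart, these are differences between the 2 batches. The background share was 7.64% of all genes for FID against IS, 12.9% for FIDch against IS, 14.2% for ISch against IS and 17.7% for FIDch against FID. For FID against IS the male minus female difference was -0.62 for Jund (SE 0.13, Benjamini-Hochberg adjusted p = 0.1998 by edgeR), -0.56 for Junb (adjusted p = 0.543) and -0.86 for Npas4 (adjusted p = 0.563). For FIDch against IS it was -1.07 for Npas4 (SE 0.39, edgeR adjusted p = 0.226). For ISch against IS it was -0.53 for Junb and -0.28 for Jund (edgeR adjusted p = 0.241 and 0.253). For FIDch against FID it was 0.64 for Fosl2 (SE 0.18, edgeR adjusted p = 0.0568), 0.97 for Fos (adjusted p = 0.175) and 0.39 for Jund (adjusted p = 0.171). Jund for FID, Npas4 for FIDch against IS and Fosl2 for FIDch against FID were called in all 20 alternatives run for each. The other calls each rested on single libraries. Leaving out 1 library ended that of Junb for FID (IS male 4 or FID female 3), of Npas4 for FID (IS male 4, FID male 3, IS female 4, FID female 1 or FID female 4) and of Junb for ISch (IS male 4, ISch males 1 or 2, ISch female 4). It also ended that of Fos for FIDch against FID (FID male 3, FID female 2 or FIDch female 1), of Jund there (FIDch male 1, FID females 3 or 4, FIDch female 1) and of Jund for ISch (IS male 1, IS male 4, ISch male 3, IS female 2, IS female 3, ISch female 1, ISch female 2).

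At the study's criterion, the choline effect differed between formerly iron-deficient and iron-sufficient rats in 4 of 20 interaction tests. In males this was Nptx2 (0.47, edgeR quasi-likelihood adjusted p = 0.152), 1 of 10 genes against 14.4% of all genes. In females it was Junb (-0.61), Jund (-0.41) and Homer1 (-0.35), 3 of 10 genes against 7.33% of all genes (edgeR quasi-likelihood adjusted p = 0.476, 0.387 and 0.468).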

How the results depend on the processing

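Of the 22 calls of single genes, 339 of 378 values under the alternatives stayed at the criterion, 39 fell short of it and 0 changed sign; for the 9 differences between the sexes, whose alternatives were chosen after seeing the data, 155 of 180 stayed and 0 changed sign. The number of the 10 genes at the criterion moved as follows. The share of all genes at the criterion in each alternative fit of this section is not given here. These counts thus describe only how the calls depend on the fit, and do not set the 10 genes apart. With all genes of at least 1 count it was 1 for male FIDch against IS (in place of 0), 2 for the male interaction (1) and 4 for the female joint test (2), and the likelihood ratio test also gave 4 there. With the 4 diet groups in 1 fit it was 1 for female FIDch against IS (2). Without the 3 male libraries named in another form it was 3 for the male interaction (1) and 1 for the male joint test (3). The cause was not tested.

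Leaving out 1 library at a time gave 0 to 2 genes for male FID against IS, 0 to 1 for FIDch, 1 to 2 for ISch and 2 to 5 for FIDch against FID, where the 5 came without FID male 2 and 4 genes without FIDch male 3. In females it gave 3 to 5 for FID against IS (5 without IS 4, FID 1, FID 2 or FID 3), 0 to 4 for FIDch (0 without FIDch 2, 4 without FIDch 4), 2 to 4 for ISch (4 without IS 3) and 2 to 4 for FIDch against FID (4 without FIDch 2). The interaction gave 1 to 3 in males and 2 to 5 in females, and the joint test 1 to 3 in males and 2 to 5 in females. Here too the share of all genes in each of these fits is not given. The 3 correlations with Fos in males became 0 without the 2 rats farthest from the median of Fos.

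Same-numbered rats of different groups did not deviate together (r from -0.151 to 0.215 in males and -0.126 to 0.152 in females, and 5 of 16 rats of each sex correlated best with their own number), so the numbers do not pair the samples. With the replicate number as a block, 1 gene was called in male FIDch against IS, 2 in the male interaction and 1 in female FIDch against IS; the other counts stayed within 1.5 times. Depth limits the male values of Fos, Fosb, Fosl2 and Npas4 most, where single libraries held 24 to 134 counts.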
